A study of Mus musculus with 11 samples.

Results

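Microglia that had been given Pam3CSK4 before interferon-gamma (IFN-gamma) were compared with microglia given IFN-gamma alone, by RNA sequencing of 3 libraries in each group, 6 of the 11 libraries of the series. All cells were primary microglia, the resident macrophages of the brain, taken from C57BL/6 mouse cerebrum at an age of 6 to 8 weeks, kept for 10 to 14 days in medium with 10% serum, TGF-beta1 (5 ng/ml) and M-CSF (10 ng/ml), which every group received. The IFN-gamma group had 20 ng/ml IFN-gamma for 24 h. The combined group had 100 ng/ml Pam3CSK4 for 24 h and then 20 ng/ml IFN-gamma for 24 h. Untreated cells (Control, 3 libraries) and cells given Pam3CSK4 alone (100 ng/ml, 24 h, 2 libraries) served as references. A label field spells the agonist with another last digit in combined replicates 2 and 3, and these were taken as the same treatment. The labels do not say whether Pam3CSK4 was removed before IFN-gamma, when the Control and Pam3CSK4 cells were collected, or whether replicates came from separate animals or cultures, so p-values measure the spread between these libraries, which may be technical.

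Pam3CSK4 is a lipopeptide made to mimic bacterial lipoproteins, an agonist of Toll-like receptor 2 (TLR2) paired with TLR1, and signals through MyD88 to NF-kappaB and MAP kinases. IFN-gamma binds the receptor chains Ifngr1 and Ifngr2, whose kinases Jak1 and Jak2 start the signal that induces Irf1 and Ciita. Ciita is the master coactivator of MHC class II genes, whose products present peptides to CD4 T cells, while other targets encode guanylate-binding proteins, MHC class I proteins and T-cell chemokines.

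The 6 libraries held 15097622 to 20321017 counts, and replicates of a group differed by more than counting noise (chi-square per gene 15.8 to 36.0 between pairs). Microglial and macrophage markers were present in every library: none of the 12 was at 0, and their summed level was 9302 to 10273 FPKM (fragments per kilobase, scaled to library size) in the IFN-gamma group and 6315 to 6611 FPKM in the combined group. In bulk RNA, fewer cells of a type and less RNA per cell cannot be told apart. Mural cell and fibroblast markers, genes of contractile vessel cells and of matrix-forming cells, stood apart in IFN-gamma replicate 1 (16 markers, summed 215 FPKM, against 57.6 and 52.4 in replicates 2 and 3) and in combined replicate 3 (77.8 FPKM, against 7.72 and 8.32 in replicates 1 and 2, with 2 of 16 at 0). Without Fn1 the sums were 125, 4.06 and 4.39 FPKM in the IFN-gamma group and 1.75, 2.89 and 56.5 FPKM in the combined group. Of 10 tested mural markers 2 were lower in the combined group, the matrix genes Postn (log2 difference -2.29 ± 0.16, SE) and Fn1 (-2.56 ± 0.79), and 0 higher. The adjusted p of Fn1 was 0.0330, 0.0421 without IFN-gamma replicate 1 and combined replicate 3, and 0.0183 to 0.110 with single libraries left out, under 0.05 only without combined replicate 3. The T-cell and natural killer markers Cd3e, Cd3d, Ncr1 and Nkg7, the mast cell marker Mcpt4, the oligodendrocyte lineage markers Mog, Mobp and Olig2 and the endothelial markers Cldn5 and Slco1a4 were at 0 in both groups. Other members of these lists were detected. The summed oligodendrocyte lineage level was 24.0 to 31.6 FPKM after IFN-gamma and 23.6 to 29.7 FPKM in the combined group. In the same order, neuron markers summed to 1.04 to 11.6 and 0.317 to 3.93 FPKM. Astrocyte markers summed to 2.66 to 5.31 and 4.00 to 5.10 FPKM, and markers of other immune cells to 4.72 to 7.55 and 8.10 to 12.5 FPKM. The summed endothelial level was 24.3 to 30.3 FPKM after IFN-gamma and 3.49 to 6.13 FPKM in the combined group, with Flt1 at 20.9, 28.3 and 22.3 FPKM and 1.55, 1.16 and 1.20 FPKM (-4.20 ± 0.24, adjusted p = 2.26e-06). Of 4 tested endothelial markers Flt1 was the 1 called lower, and Kdr, with 0.450, 0.344 and 0.440 and 1.30, 1.08 and 1.41 FPKM, the 1 called higher (1.61 ± 0.17, adjusted p = 1.04e-04). IFN-gamma replicate 1 and combined replicate 3 are called here the 2 mural libraries. What part the mural transcripts have in the other results was not tested.

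Prior TLR2 activation changed the IFN-gamma-treated cells broadly. Of 10938 genes tested, 1856 (17%) were higher and 1884 (17.2%) lower in the combined group, at an adjusted p under 0.05 from edgeR's quasi-likelihood test, together 34.2% of genes. At least 2-fold changes accounted for 622 higher (5.69%) and 605 lower (5.53%) genes, and the median log2 difference over all genes was -0.02. All 3 combined libraries lay above all 3 IFN-gamma libraries for 3033 genes (27.7%) and below them for 3089 (28.2%). Without the 2 mural libraries 1224 genes (11.2%) were higher and 1137 (10.4%) lower, with fewer libraries in the test. Of the full set of calls, 1171 higher and 1114 lower genes were called again in that fit, and none was called in the opposite direction. With Control replicate 3, the third library rich in mural transcripts, also left out, 2281 (20.9%) and 2120 (19.4%) were called.

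**Figure D1:**
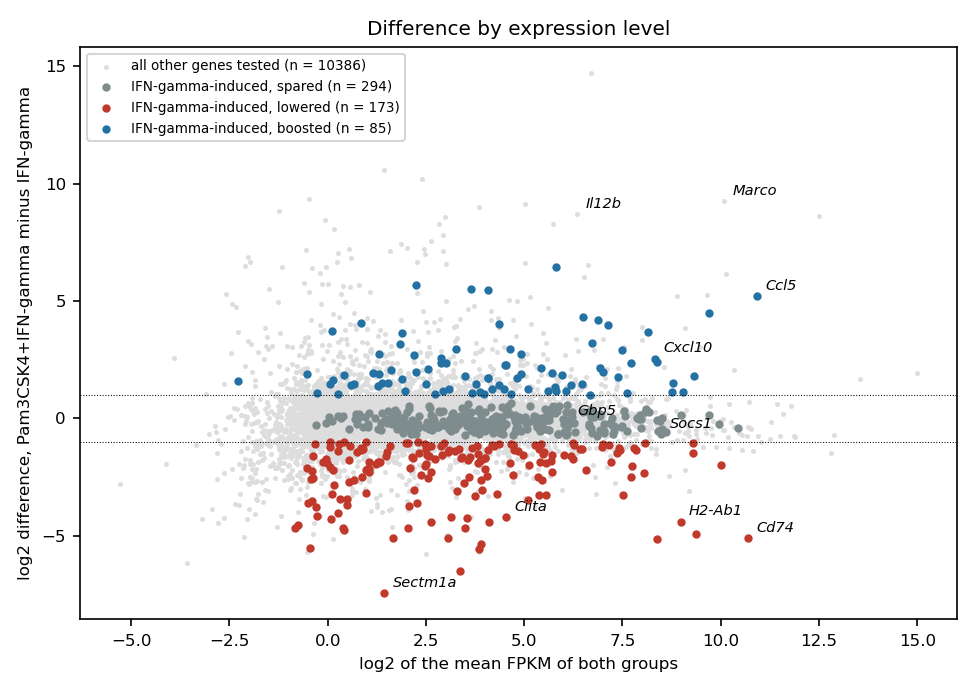
Each point is 1 of 10938 tested genes, with the log2 mean FPKM of both groups on the x axis and the log2 difference, combined minus IFN-gamma, on the y axis. Dotted lines mark 2-fold. The 173 IFN-gamma-induced genes that were lowered (red) reach -7.44 and include Cd74 at the high end of expression, the 294 spared genes (grey) lie around 0, and the 85 boosted genes (blue) rise to 6.47.

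IFN-gamma-induced genes were taken as those called and at least 2-fold higher in IFN-gamma against Control, 731 genes (6.68% of those tested). Of these, 173 (23.7%) were lowered, meaning called and at least 2-fold lower in the combined group, against 5.53% of all genes. Another 85 (11.6%) were boosted, called and at least 2-fold higher, against 5.69% of all genes. A further 294 (40.2%) were spared, meaning that the 95% interval of the difference lay within 2-fold either way, against 68.8% of all genes. Among the spared, 69 were still called, 59 of them lower and 10 higher. The remaining 84 were called with a smaller change (48 lower, 36 higher) and 95 were unresolved. The IFN-gamma libraries enter both the choice of induced genes and the comparison. When induced genes were instead taken from the mean of both IFN-gamma-treated groups against Control, 781 genes qualified, of which 101 were lowered, 236 boosted and 264 spared.

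Lowered genes had a median difference of -1.86 and kept a median of 4.64% of their rise, computed as the combined mean FPKM over Control divided by the IFN-gamma mean over Control. For 107 of the 173 less than 10% of the rise remained, and 64 fell below the Control mean. Spared genes kept a median of 87.9% (median difference -0.12), and boosted genes reached a median of 456% of the rise (median difference 1.86). The lowered, spared and boosted genes differed in their level after Pam3CSK4 alone, with median log2 differences against Control of -0.78, 0.62 and 3.37, beside 2.29, 1.37 and 2.13 for IFN-gamma alone; these comparisons share the Control libraries and are given side by side only. Without the 2 mural libraries 154 lowered, 234 spared and 70 boosted genes stayed in their class. At the limits, Psmf1 (-1.004) and Nlrp1c-ps (-1.01) were just inside the lowered class and H2-T23 (-0.999) and Rab3d (-0.99) just outside, while Ifit2 (1.01) and Mx1 (1.03) were just boosted and Sema4a (0.99) and Herc6 (0.98) just not.

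The split differed with the size of the rise. Of 428 genes induced 2- to 4-fold by IFN-gamma, 70 were lowered, 216 spared and 40 boosted. Of 59 genes induced at least 64-fold, 32 were lowered, 10 spared and 4 boosted, with a median difference of -1.36. Between them, 195 genes induced 4- to 16-fold had 55 lowered, 59 spared and 33 boosted, and 49 induced 16- to 64-fold had 16, 9 and 8. The rise and the difference share the IFN-gamma libraries, so these counts are a description.

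**Figure D2:**
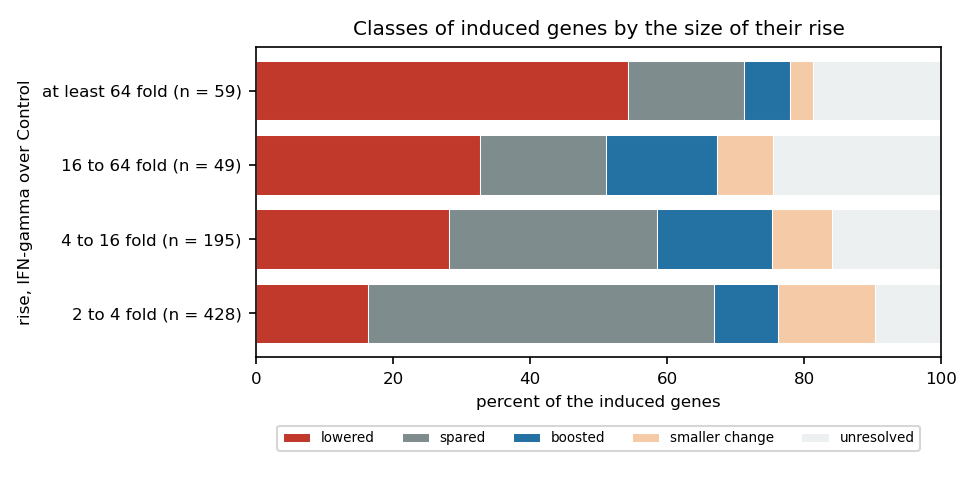
Bars give the percent of IFN-gamma-induced genes in each class, for 4 sizes of the rise over Control, with the number of genes beside each bar. Lowered genes make up 70 of 428 in the group with the smallest rises and 32 of 59 in the group with the largest, and spared genes 216 and 10.

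Promoters of the 3 classes are shown for genes whose values follow, chosen after those values were seen, 2 a class. Sequences are from the RefSeq promoter table on GRCm38.p6, the assembly of which mm10 is the browser name, read 5′ to 3′ on the gene's strand from 250 bases before the start site to 26 bases before it (41 for Gbp5). In the lowered class II genes H2-Aa (chr17:34287849-34288073, minus strand) and H2-Eb1 (chr17:34305617-34305841, plus strand), capitals mark matches to the CCAAT box, 1 in H2-Aa and 2 in H2-Eb1. A CCAAT box is part of the conserved class II promoter module, and which match belongs to it was not tested.
H2-Aa: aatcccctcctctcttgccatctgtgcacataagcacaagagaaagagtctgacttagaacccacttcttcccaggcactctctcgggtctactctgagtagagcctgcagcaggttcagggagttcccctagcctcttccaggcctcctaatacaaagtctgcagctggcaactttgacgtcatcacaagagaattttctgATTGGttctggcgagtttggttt
H2-Eb1: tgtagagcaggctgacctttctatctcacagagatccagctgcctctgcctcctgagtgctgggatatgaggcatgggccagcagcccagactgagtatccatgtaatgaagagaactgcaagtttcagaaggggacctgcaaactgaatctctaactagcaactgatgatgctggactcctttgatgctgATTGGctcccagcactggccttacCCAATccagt
In the spared genes Gbp5 (chr3:142496684-142496893, plus strand) and Gbp3 (chr3:142559794-142560018, plus strand), capitals mark matches to the interferon-stimulated response element, bound by IRF and STAT factors, and in Gbp5 also to gamma-activated sites. The 2 element matches in Gbp3 overlap, and Gbp5 also holds an NF-kappaB match in lower case.
Gbp5: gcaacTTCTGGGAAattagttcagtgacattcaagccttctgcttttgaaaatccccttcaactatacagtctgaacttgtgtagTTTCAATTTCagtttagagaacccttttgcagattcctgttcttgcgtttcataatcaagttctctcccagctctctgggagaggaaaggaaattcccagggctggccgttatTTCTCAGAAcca
Gbp3: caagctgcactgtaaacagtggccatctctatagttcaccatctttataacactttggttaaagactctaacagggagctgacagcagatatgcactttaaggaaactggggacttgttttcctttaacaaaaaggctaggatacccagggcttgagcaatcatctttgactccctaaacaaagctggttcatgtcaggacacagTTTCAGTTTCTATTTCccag
In the boosted genes Cxcl10 (chr5:92348915-92349139, minus strand) and Rsad2 (chr12:26456478-26456702, minus strand), capitals mark the interferon-stimulated response element. Matches to the other motif forms searched, left in lower case, are an AP-1 site in both windows and a CCAAT box in Cxcl10.
Cxcl10: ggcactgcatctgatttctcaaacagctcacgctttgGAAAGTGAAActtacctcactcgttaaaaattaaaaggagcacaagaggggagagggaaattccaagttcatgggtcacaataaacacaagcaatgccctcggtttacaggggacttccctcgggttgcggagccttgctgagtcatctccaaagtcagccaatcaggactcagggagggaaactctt
Rsad2: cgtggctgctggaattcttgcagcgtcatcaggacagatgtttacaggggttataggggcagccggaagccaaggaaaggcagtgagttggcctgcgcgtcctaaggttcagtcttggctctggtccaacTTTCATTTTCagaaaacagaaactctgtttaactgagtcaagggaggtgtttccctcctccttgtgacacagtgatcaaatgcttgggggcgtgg

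Motifs were searched on both strands of the full windows, 250 bases before to 50 after the start site. The interferon-stimulated response element occurred in 14 of 118 lowered genes with an entry (11.9%), 32 of 210 spared (15.2%) and 9 of 63 boosted (14.3%), against 4.03% of all tested genes and 3.44% of the 32851 windows of the table. The gamma-activated site, TTCNNNGAA, was found in 11.9, 12.9 and 14.3% (8.12% of tested genes, 8.30% of windows), and the CCAAT box, CCAAT, in 44.1, 48.6 and 34.9% (42.7 and 37.4%). An AP-1 site, TGANTCA, was found in 8 of 118 lowered (6.78%), 20 of 210 spared (9.52%) and 10 of 63 boosted genes (15.9%), against 11.5% of all IFN-gamma-induced genes, 6.03% of tested genes and 7.81% of windows. For NF-kappaB only 1 narrow form was searched, with a single base left free. That form was in 0 lowered, 1 spared and 0 boosted windows (0.57% of tested genes, 0.41% of windows). Looser forms of the NF-kappaB site were not searched, so these counts cannot show that a window, such as that of Cxcl10 or H2-Aa, lacks a site. A match describes letters in these windows and is not a bound site.

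MHC class II presentation was the list that fell furthest. Of 14 tested members 12 were lower and 0 higher, with a median log2 difference of -2.87 against -0.02 for all genes, and 11 remained lower without the 2 mural libraries. Over all tested genes 17% were higher and 17.2% lower, shares to set beside the counts of every list that follows. Its 10 IFN-gamma-induced members comprised 9 lowered and 1 with a smaller fall. The transactivator gene Ciita (ENSMUSG00000022504, chromosome 16, 10488178 to 10527564 on mm10) measured 36.4, 50.9 and 43.8 FPKM in IFN-gamma replicates 1, 2 and 3 and 2.60, 2.37 and 2.23 FPKM in combined replicates 1, 2 and 3. Its log2 difference was -4.20 ± 0.20 (SE; adjusted p = 7.36e-07), and the groups lay far apart, with the combined group nonetheless above the Control mean of 0.0384 FPKM. The invariant chain gene Cd74, whose product escorts class II molecules to the endosome, measured 2743, 3295 and 3583 FPKM after IFN-gamma and 96.5, 96.5 and 92.5 FPKM in the combined group (-5.09 ± 0.14, adjusted p = 9.35e-08). All 3 combined libraries were thus lower than every IFN-gamma library, which was also a condition of the rules that picked Cd74 by its fall. Of the rise over the Control mean of 15.8 FPKM, 2.49% remained.

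The class II chains behaved alike. H2-Aa, an alpha chain whose promoter is printed above, measured 572, 654 and 729 FPKM and then 19.4, 19.3 and 17.2 FPKM in the combined group (-5.14 ± 0.32, adjusted p = 4.37e-06). The beta chain gene H2-Eb1 measured 1107, 1309 and 1455 FPKM and 44.6, 43.1 and 39.7 FPKM (-4.94 ± 0.22, adjusted p = 6.14e-07), and H2-Ab1, the beta chain gene that pairs with H2-Aa, 885, 919 and 1081 and 46.6, 47.0 and 44.5 FPKM (-4.40 ± 0.17, adjusted p = 2.74e-07). Between 1.71 and 3.19% of the rise remained in these 3 genes. None of the libraries overlapped, but groups without overlap were a condition of the rules that picked H2-Aa and H2-Eb1 by their falls. H2-DMa and H2-DMb2, subunits of the peptide-exchange chaperone, fell below Control: H2-DMa averaged 35.1 ± 1.78 FPKM (SD, n = 3) in the combined group and 329.9 ± 10.3 FPKM (SD, n = 3) after IFN-gamma, beside 75.7 FPKM in Control and 13.6 FPKM after Pam3CSK4 alone (-3.24 ± 0.22, adjusted p = 6.61e-06). H2-DMb2 differed by -4.41 ± 0.20. Smaller falls were found for Rfx5, a subunit of the factor that binds class II promoters (-0.93), and for the endosomal protease gene Ctss (-0.76), whereas the other Rfx subunit genes, Rfxank (-0.11) and Rfxap (-0.07), were not called.

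**Figure D3:**
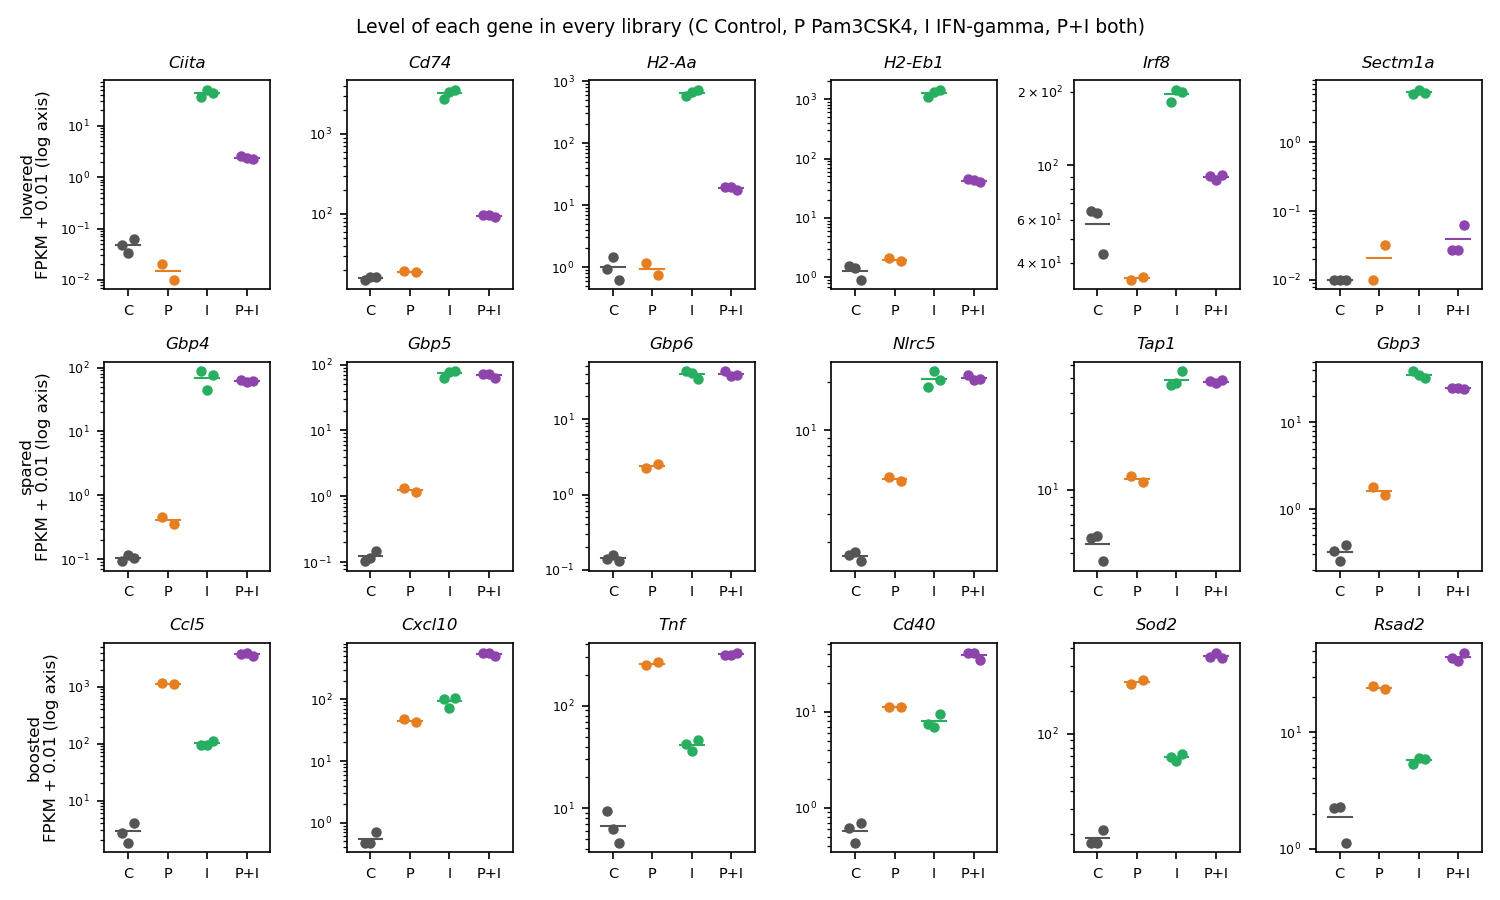
FPKM plus 0.01 on a log axis in every library of Control (C), Pam3CSK4 (P), IFN-gamma (I) and the combined group (P+I); short lines are group means, and each panel has its own scale. In the lowered row the combined libraries sit below the IFN-gamma libraries for all 6 genes, in the spared row the 2 groups lie within 2-fold, and in the boosted row the combined libraries are above both single treatments for all 6 genes. Lack of overlap between I and P+I was also a naming condition for Cd74, H2-Aa, H2-Eb1, Sectm1a, Ccl5, Tnf and Rsad2.

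The most lowered of the other induced genes were near the bottom of the assay in the combined group. Sectm1a, which encodes an interferon-inducible secreted and membrane protein, measured 5.03, 5.87 and 5.21 FPKM after IFN-gamma and 0.0170, 0.0169 and 0.0528 FPKM in the combined group (-7.44 ± 0.55, adjusted p = 5.45e-05). It was at 0 in all Control libraries, and 0.538% of the rise remained. Rnase6, an antimicrobial ribonuclease, measured 19.7, 21.0 and 20.2 and 0.277, 0.230 and 0.143 FPKM (-6.51 ± 0.58), the latter under the Control mean of 1.56 FPKM. The opioid precursor gene Pdyn differed by -5.56 ± 0.32, the C-type lectin receptor genes Klrb1b and Clec9a by -5.37 ± 0.21 and -5.09 ± 0.44, and the clone-named gene RP24-127M20.8, which overlaps Klrb1b on chromosome 6 and may share its reads, by -5.10 ± 0.32. Groups without overlap were a condition for naming these 6 genes, so their lack of overlap is no further result. Their largest adjusted p was 5.45e-05.

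Among the costimulatory ligands, Cd86, which engages CD28 on T cells, was lowered while Cd40, the receptor for T-cell CD40 ligand, was boosted. Cd86 measured 75.7, 83.5 and 79.1 FPKM after IFN-gamma and 24.1, 24.2 and 20.9 FPKM in the combined group (-1.79 ± 0.15, adjusted p = 3.27e-05), close to the Control mean of 19.9 FPKM. Cd40 measured 7.43, 6.90 and 9.44 and 41.1, 40.5 and 34.3 FPKM (2.27 ± 0.17, adjusted p = 1.16e-05), with 11.3 FPKM after Pam3CSK4 alone. The checkpoint ligand gene Cd274, encoding PD-L1, rose from 197, 232 and 215 to 370.3, 354 and 325 FPKM (0.70 ± 0.16, adjusted p = 0.00955, and 0.68 with adjusted p = 0.0515 without the 2 mural libraries). Havcr2, encoding TIM-3, was lower (-1.85 ± 0.19, adjusted p = 9.09e-05). Of 14 tested costimulation and checkpoint genes 3 were higher and 6 lower (median -0.47), and 1 and 4 without the 2 mural libraries.

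Of 19 genes of the IFN-gamma receptor pathway 4 were higher and 5 lower, with a median of 0.19, against 17% and 17.2% of all tested genes. Without the 2 mural libraries 1 was higher and 5 were lower. The ligand-binding chain gene Ifngr1 measured 21.8, 25.9 and 25.1 FPKM after IFN-gamma and 12.5, 13.4 and 12.2 FPKM in the combined group (-0.94 ± 0.15, adjusted p = 0.00138), and the combined libraries were all lower. Ifngr2, the second chain, did not pass (0.19 ± 0.10, 95% interval -0.04 to 0.43, adjusted p = 0.191). The kinase gene Jak2 rose from 21.4, 21.8 and 18.0 to 83.1, 76.5 and 69.3 FPKM (1.90 ± 0.10, adjusted p = 1.85e-06), near its level after Pam3CSK4 alone (85.3 FPKM).

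The interferon regulatory factors Irf1 and Irf8 were lower. Irf1 measured 135, 139 and 165 and 82.5, 94.8 and 87.4 FPKM (-0.74 ± 0.14, adjusted p = 0.00324), with 58.3% of its rise left. Irf8, a lineage factor of microglia, measured 181, 204 and 199.7 and 90.9, 87.3 and 91.5 FPKM (-1.13 ± 0.18, adjusted p = 0.00130), and 23.5% of its rise was left. Neither pair of groups overlapped. The feedback inhibitor gene Socs1 measured 430.5, 419 and 463 FPKM and 276, 270.2 and 293 FPKM, a fall of under 2-fold (-0.65 ± 0.13, adjusted p = 0.00501), and so counted as spared. Socs3, another inhibitor of cytokine receptors, was higher, from 83.8, 67.5 and 75.1 to 257, 263 and 259 FPKM (1.78 ± 0.59, adjusted p = 0.0437). Leaving out any 1 of the 6 libraries raised the adjusted p of Socs3 to between 0.0883 and 0.117, and leaving out the 2 mural ones to 0.154.

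The guanylate-binding proteins and immunity-related GTPases, which attack vacuoles that hold pathogens, were split. All 19 tested members were induced by IFN-gamma. In the combined group 9 were lower and 0 higher (median -0.52; 4 lower without the 2 mural libraries), and by class 6 were lowered, 11 spared and 0 boosted. Members of this family are alike in sequence and some overlap, and how shared reads were counted is not given in the sources used here, so values of single members are uncertain. Gbp5, whose promoter is printed above, measured 63.2, 77.8 and 79.8 FPKM after IFN-gamma and 71.9, 70.8 and 62.3 FPKM in the combined group, with overlapping groups (-0.12 ± 0.13, interval -0.41 to 0.18, adjusted p = 0.527). Gbp6 gave the same picture at one of its 2 gene identifiers, ENSMUSG00000104713 (43.5, 40.6 and 33.6 and 43.3, 37.9 and 38.8 FPKM, 0.02 ± 0.12, adjusted p = 0.910). For Gbp4 (88.2, 44.9 and 75.2 and 62.7, 59.3 and 61.2 FPKM) the difference was -0.19 ± 0.21 (adjusted p = 0.520), with replicate 2 lowest in the IFN-gamma group, and without that replicate it was -0.43 (adjusted p = 0.0357).

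Gbp3, the other promoter shown for this class, fell by under 2-fold, from 39.1, 35.1 and 32.1 to 24.9, 24.9 and 24.4 FPKM (-0.52 ± 0.12, adjusted p = 0.00715, and 0.0785 without the 2 mural libraries), and Gbp7 did not pass (-0.11 ± 0.38). Other members of the family fell further. Tgtp1 measured 79.1, 54.9 and 52.7 and 3.07, 3.27 and 10.5 FPKM (-3.48 ± 0.48, adjusted p = 5.20e-04), with combined replicate 3 the highest of its group, while its near-identical neighbour Tgtp2 differed by -0.76 ± 0.10 (adjusted p = 3.81e-04). Gbp11 (-3.45 ± 0.46) and Gbp8 (-3.07 ± 0.38), which lies over the Gbp4 locus, were lowered to 8.93 and 10.8% of their rise. Iigp1, induced by 12.46 on the log2 scale over Control, went from 854, 933 and 751 to 401, 388 and 435 FPKM (-1.06 ± 0.24, adjusted p = 0.00865), and -1.11 with adjusted p = 0.0537 without the 2 mural libraries. Gbp2 was the most abundant of the guanylate-binding proteins named here, at 1652, 1639 and 1693 FPKM after IFN-gamma and 711, 722 and 660.2 FPKM in the combined group. Its groups did not overlap, yet the adjusted p was 0.0615 (-1.26 ± 0.46). The spread in that fit comes from all 4 groups, and Control replicate 3 stood at 4.22 FPKM against 0.917 and 0.737 in replicates 1 and 2. Fitted on the 6 libraries alone it was called (-1.24, adjusted p = 3.67e-05).

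MHC class I presentation, by contrast with class II, mostly stayed within 2-fold. Of 24 tested genes 7 were lower and 1, H2-T24 (0.68), higher, with a median of -0.22, and 3 and 0 without the 2 mural libraries. Of 21 induced members 15 were spared, 0 lowered and 0 boosted, with 5 called at a smaller change and 1 unresolved. Spared genes made up 40.2% of all induced genes. The interval lay within 2-fold for 68.8% of all tested genes. The class I transactivator gene Nlrc5 measured 18.7, 23.6 and 20.8 and 22.1, 20.5 and 21.1 FPKM (0.01 ± 0.12, interval -0.26 to 0.27, adjusted p = 0.979). Tap1, which pumps peptides into the endoplasmic reticulum, measured 45.0, 46.2 and 55.2 and 47.5, 46.1 and 48.5 FPKM (-0.05 ± 0.18, interval -0.45 to 0.34, adjusted p = 0.838). In both genes the groups overlapped. The non-classical gene H2-T23 (-0.999 ± 0.201, adjusted p = 0.00432) and the tapasin-like gene Tapbpl (-0.94 ± 0.17, adjusted p = 0.00212) kept 43.8 and 45.8% of their rise. B2m, the shared light chain, measured 8353, 10005 and 9635 and 6560.0, 5439.7 and 5523 FPKM (-0.69 ± 0.20, adjusted p = 0.0256); its adjusted p ranged from 0.0308 to 0.0830 with single libraries left out, above 0.05 without IFN-gamma replicate 2 or 3 or combined replicate 2 or 3, and was 0.0852 without the 2 mural libraries.

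Chemokine genes showed the widest range of any list. Of 18 tested, 10 were higher and 5 lower, with a median of 1.27, and 8 and 5 without the 2 mural libraries. Ccl5, which attracts T cells and monocytes, measured 96.0, 96.6 and 113 FPKM after IFN-gamma and 3792, 4010.3 and 3504 FPKM in the combined group, a rise of 5.20 ± 0.23 (adjusted p = 5.77e-07). This 36.7-fold difference placed it also above Pam3CSK4 alone, at 1139 FPKM. The CXCR3 ligands divided: Cxcl10 rose from 101, 73.2 and 107 to 572, 575 and 507 FPKM (2.55 ± 0.17, adjusted p = 6.47e-06), while Cxcl9 fell from 1331, 1483 and 1564 to 861, 864 and 838 FPKM (-0.78 ± 0.12, adjusted p = 0.00121) and Cxcl11 was not called (-0.38). No combined library overlapped the IFN-gamma libraries in Cxcl9 or Cxcl10. The other lower chemokine genes were Ccl22 (-4.20), Ccl12 (-2.02) and Ccl2 (-1.85), which are in the lowered class, and Ccl6 (-2.51), which IFN-gamma had not induced. Their products act on T cells and monocytes.

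Chemokine genes that IFN-gamma had not raised were among the largest rises. The neutrophil chemokine Cxcl2 measured 0.0234, 0.0726 and 0.103 FPKM after IFN-gamma and 13.8, 14.9 and 17.1 FPKM in the combined group (7.82 ± 0.48, adjusted p = 3.72e-06), and Cxcl3 0.160, 0 and 0.0587 and 8.92, 9.88 and 13.8 FPKM (7.22 ± 0.63). Ccl3, a chemokine for monocytes and T cells, measured 29.7, 31.3 and 31.4 and 2209, 2217 and 2167 FPKM (6.15 ± 0.26, adjusted p = 4.82e-07), beside 319 FPKM in Control, so that the IFN-gamma group was the lowest of the 4. Cxcl1 differed by 7.28 ± 1.75 (adjusted p = 0.0104), and by 8.18 with adjusted p = 0.0600 without the 2 mural libraries.

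Type I interferon-stimulated genes, antiviral effectors, were more often higher than lower. Of 39 tested, 22 were higher and 2 lower, with a median of 0.69, and 10 and 1 without the 2 mural libraries. Of 34 members that IFN-gamma had induced 10 were boosted, 9 spared and 1 lowered. Rsad2, the antiviral radical-SAM enzyme viperin, rose from 5.30, 5.98 and 5.83 to 43.7, 40.9 and 48.3 FPKM (2.95 ± 0.27, adjusted p = 4.64e-05), and Ifit1, which binds viral RNA ends, from 24.3, 20.7 and 19.9 to 80.4, 78.4 and 91.1 FPKM (1.94 ± 0.24, adjusted p = 2.85e-04). Both were also above the Pam3CSK4 means of 24.1 and 53.6 FPKM. The helicase-related gene Ddx60, which IFN-gamma had not raised, differed by 2.18 ± 0.21. Changes were smaller for Isg15 (1.09), Mx1 (1.03), Oas2 (1.16) and Irf7 (0.68), all called. The lower members were Ifi205, an HIN-200 family gene with 21.8, 26.0 and 25.2 and 7.42, 7.37 and 7.95 FPKM (-1.69 ± 0.21, adjusted p = 2.42e-04), and Ifi27l2a (-0.93).

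Tnf and both interleukin 1 genes were higher in the combined group. Of 18 tested cytokines and antagonists 8 were higher and 4 lower (median 0.83; 8 and 5 without the 2 mural libraries). Tnf measured 42.4, 35.9 and 46.7 FPKM after IFN-gamma and 311, 313 and 330.0 FPKM in the combined group (2.92 ± 0.27, adjusted p = 4.42e-05), beside 257 FPKM after Pam3CSK4 alone. Il1b, the inflammasome-processed pyrogen, measured 2.43, 1.55 and 2.25 and 217, 212 and 160.2 FPKM (6.56 ± 0.29, adjusted p = 5.34e-07), beside 26.3 FPKM in Control and 59.9 FPKM after Pam3CSK4, so the combined group was the highest and the IFN-gamma group the lowest of the 4. Il1a had the same order (3.81, 3.01 and 3.93 and 96.3, 101 and 82.2 FPKM, 4.70 ± 0.14).

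Il12b, the p40 subunit shared by interleukins 12 and 23, was nearly silent after IFN-gamma (0, 0.647 and 0.471 FPKM) and reached 227, 177 and 80.5 FPKM in the combined group (8.72 ± 1.00, adjusted p = 1.68e-04), with combined replicate 3 the lowest of its group. The anti-inflammatory gene Il10 had 0 counts in all IFN-gamma libraries and 147 in the combined group (1.44, 1.65 and 2.54 FPKM), which is at least 41.1-fold higher against a floor of 3 counts over the group (adjusted p = 2.24e-04). Il6 rested on 1 library: IFN-gamma replicates 1, 2 and 3 measured 3.46, 0.0786 and 0.0162 FPKM and the combined libraries 18.8, 19.0 and 13.8 FPKM (3.88 ± 1.42, adjusted p = 0.0613), and without the 2 mural libraries, of which IFN-gamma replicate 1 is one, it was 8.50 (adjusted p = 0.0128). The lower members were Il12rb1 (-2.45), a receptor chain for interleukin 12, Il27 (-1.62), Il18 (-1.23) and Tgfb1 (-0.81).

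Genes that TLR signalling induces were mostly higher in the combined group. Of 29 TLR-induced and feedback genes 24 were higher and 1, Gpr84 (-0.75), lower, with a median of 1.81, and 23 and 1 without the 2 mural libraries. The scavenger receptor gene Marco measured 2.00, 6.62 and 1.88 FPKM after IFN-gamma and 1848, 2146 and 2484 FPKM in the combined group (9.25 ± 0.66, adjusted p = 9.36e-06), the acute-phase gene Saa3 26.7, 34.4 and 27.1 and 10322, 11497 and 12827 FPKM (8.61 ± 0.92), and the siderophore-binding gene Lcn2 1.13, 0.561 and 0.259 and 62.1, 62.6 and 66.6 FPKM (6.62 ± 0.61). The signalling adaptor gene Traf1 differed by 6.99 ± 0.71. No library of one group came near the other in these 4 genes. For Marco and Saa3, groups without overlap were also a condition of the rule that picked them by their rises. Other members that rose included Irak3 (3.30), which blocks the Myd88 signalling complex, Nfkbiz (4.21), Zc3h12a (2.74), an mRNA-degrading nuclease, and Nfkbia (1.58).

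In the TLR pathway 8 of 26 genes were higher and 0 lower (median 0.19; 7 and 0 without the 2 mural libraries). The coreceptor gene Cd14 measured 107, 45.9 and 56.5 FPKM after IFN-gamma and 1144, 1086 and 810.0 FPKM in the combined group (3.86 ± 0.33, adjusted p = 3.19e-05), beside 419 FPKM in Control. Tlr2, the receptor of the agonist, measured 86.3, 71.6 and 82.7 and 183, 179 and 145 FPKM (1.07 ± 0.16, adjusted p = 8.00e-04), and its partner gene Tlr1 10.2, 10.1 and 10.0 and 20.5, 21.0 and 22.2 FPKM (1.06 ± 0.19, adjusted p = 0.00219). The groups did not overlap in these 3 genes, and Tlr2 in the combined group was below its Control mean of 214 FPKM. The adaptor gene Myd88 was not called (-0.22).

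The largest single rises outside these lists were in genes that IFN-gamma-treated cells barely transcribed. Ccr7, the receptor that guides migration to lymph nodes, had 0 counts after IFN-gamma and 638 in the combined group (6.94, 6.64 and 2.43 FPKM), at least 179-fold higher against a floor of 3 counts over the group (adjusted p = 1.88e-04). Draxin, a secreted axon guidance protein, had 2 and 3263 counts, a ratio of 1369 (95% counting interval 378.8 to 11313). Slc13a3, a dicarboxylate transporter, measured 0.110, 0.161 and 0.0693 and 70.8, 61.7 and 62.8 FPKM (9.12 ± 0.52), and the pantetheinase gene Vnn3 0.133, 0.680 and 0.146 and 121, 108 and 90.0 FPKM (8.30 ± 0.51). Lad1 (9.00 ± 0.96), the potassium channel subunit gene Kcne3 (8.30 ± 0.86), the zinc finger gene Zfp811 (7.55 ± 0.29) and the transporter gene Slc6a12 (7.42 ± 0.74) rose likewise. All 8 of these genes had been high after Pam3CSK4 alone, with means of 7.07, 12.6, 171, 149, 52.3, 11.1, 20.9 and 13.3 FPKM in that order.

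Enzymes that make or handle reactive oxygen and nitrogen were mostly higher, 13 of 21 against 2 lower (median 0.90; the same 13 and 2 in number without the 2 mural libraries, median 1.13). Sod2, the mitochondrial superoxide dismutase, rose from 69.2, 64.9 and 72.7 to 344, 370.1 and 339 FPKM (2.34 ± 0.09, adjusted p = 3.35e-07), and the arginine importer gene Slc7a2 from 2.65, 2.83 and 2.31 to 14.8, 13.9 and 12.2 FPKM (2.38 ± 0.11, adjusted p = 7.65e-07). Nos2, inducible nitric oxide synthase, measured 46.4, 37.9 and 38.8 FPKM after IFN-gamma and 528, 504 and 557 FPKM in the combined group, beside 49.3 FPKM after Pam3CSK4 alone (3.68 ± 1.02, adjusted p = 0.0208). The groups were far apart. Control replicate 3 held 4.68 FPKM against 0.0635 and 0.211, and the adjusted p was 0.104 without the 2 mural libraries and 0.0562, 0.0703 and 0.0744 without IFN-gamma replicate 1, 2 or 3. The NADPH oxidase subunit gene Cybb (2.17) rose while its partner Cyba (-0.90) fell, as did the arginine-recycling gene Ass1 (-1.32). Arg1, the arginase of alternative activation, was unresolved (15.8, 1.34 and 1.62 and 9.84, 18.4 and 20.1 FPKM, 1.39 ± 0.95, adjusted p = 0.292), and was 3.24 (adjusted p = 0.0367) without the 2 mural libraries, of which IFN-gamma replicate 1 was the highest of its group.

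Further boosted genes included formyl peptide receptors. Fpr1 and Fpr2, which sense bacterial peptides, measured 20.4, 11.3 and 18.2 and 23.6, 16.6 and 20.8 FPKM after IFN-gamma and 262, 268 and 267 and 180.3, 200.3 and 191 FPKM in the combined group (3.99 ± 0.35 and 3.22 ± 0.28). Ptges, the inducible prostaglandin E synthase and a member of the TLR-induced list, measured 13.6, 5.35 and 6.88 and 171, 171 and 176 FPKM (4.33 ± 0.62), Aoah, which detoxifies lipopolysaccharide, 12.6, 10.7 and 12.7 and 234, 222 and 214 FPKM (4.21 ± 0.11), and Wfdc17, an antiprotease-like secreted protein, 50.1, 76.8 and 82.5 and 1550.4, 1626 and 1632 FPKM (4.51 ± 0.23). Groups without overlap were a condition for naming these 5 genes too, and the largest adjusted p was 6.30e-04. After Pam3CSK4 alone Aoah and Fpr1 averaged 204 and 216 FPKM.

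Complement and Fc receptor genes split with 5 of 22 higher and 11 lower (median -0.68, and 3 and 7 without the 2 mural libraries, median -0.57). The integrin gene Itgax fell from 194, 311 and 319 to 46.4, 40.3 and 36.7 FPKM (-2.75 ± 0.28, adjusted p = 8.23e-05). C3ar1, the receptor for the C3a fragment, rose from 31.5, 23.2 and 22.1 to 187, 187 and 209.8 FPKM (2.92 ± 0.19, adjusted p = 5.42e-06). None of these groups overlapped. C3 itself differed by 2.40 and the C1q chain genes C1qa, C1qb and C1qc by -0.75, -0.79 and -0.75, all called.

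Genes of resting and of disease-associated microglia were mostly lower. Of 33 homeostatic genes 21 were lower and 2 higher (median -1.22; 19 and 2 without the 2 mural libraries). Slco2b1, an organic anion transporter, fell from 28.9, 39.4 and 16.3 to 0.645, 0.492 and 0.506 FPKM (-5.69 ± 0.36, adjusted p = 4.37e-06), and the ADP receptor gene P2ry12 from 15.2, 18.0 and 14.4 to 2.05, 1.85 and 2.14 FPKM (-2.99 ± 0.38, adjusted p = 3.29e-04). Csf1r, the receptor for M-CSF, measured 438, 475 and 494 and 191, 180.1 and 200.2 FPKM (-1.31 ± 0.17, adjusted p = 3.85e-04). In all 3 the combined libraries were the lower ones, as they were in the lysophosphatidylserine receptor gene Gpr34 (-3.38 ± 0.34). For Slco2b1, groups without overlap were also a condition of the rule that picked it by its fall. Tmem119, by contrast, was low in both groups with overlapping values (23.6, 14.2 and 14.7 and 16.0, 13.9 and 17.2 FPKM, -0.16 ± 0.26, interval -0.74 to 0.42, adjusted p = 0.671). The homeostatic genes that rose were the fractalkine receptor gene Cx3cr1 (77.1, 82.2 and 81.4 and 161, 157 and 166 FPKM, 1.00 ± 0.17) and the transporter gene Abca9 (3.11 ± 0.21). The summed level of the 12 microglial markers, given above, moved down with these genes, and its part in them was not tested.

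Of 24 genes of disease-associated microglia, 17 were lower and 4 higher (median -0.996; 15 and 4 without the 2 mural libraries). Trem2, the lipid-sensing receptor, measured 211, 218 and 243 FPKM after IFN-gamma and 59.9, 53.5 and 47.1 FPKM in the combined group (-2.08 ± 0.21, adjusted p = 8.31e-05). Lipoprotein lipase, Lpl, measured 186, 228 and 203 and 19.5, 19.5 and 27.1 FPKM (-3.24 ± 0.27, adjusted p = 2.99e-05) and osteopontin, Spp1, 1168, 1001 and 991 and 93.0, 88.7 and 193 FPKM (-3.09 ± 0.30, adjusted p = 6.55e-05), with combined replicate 3 the highest of its group in Lpl and Spp1. The lysozyme gene Lyz2 was one of the 4 that rose, from 7242, 4314 and 5517 to 15826, 18081 and 20626 FPKM (1.67 ± 0.27), beside Fabp5 (1.56), Igf1 (1.56) and Ch25h (1.13). Outside the lists, Ramp1, a subunit of the CGRP receptor, and Siglecf, a sialic acid receptor, fell by 5.78 ± 0.39 and 4.96 ± 0.34 on the log2 scale.

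Metabolic lists moved less, apart from sterol genes. Of 24 sterol synthesis and cholesterol handling genes 15 were lower and 4 higher (median -0.63; 13 and 4 without the 2 mural libraries). The synthesis enzyme gene Fdps fell (11.8, 11.1 and 11.6 and 3.28, 3.29 and 4.10 FPKM, -1.70 ± 0.11). Abca1, which exports cholesterol, and Nr1h3, the oxysterol-sensing receptor that induces it, rose: Abca1 measured 4.80, 5.58 and 4.44 and 40.3, 33.7 and 30.5 FPKM (2.81 ± 0.14, adjusted p = 1.18e-06), and Nr1h3 0.942, 1.36 and 1.16 and 4.61, 4.86 and 5.26 FPKM (2.07 ± 0.24, adjusted p = 1.87e-04). Of 18 glycolysis genes 8 were lower and 1, Pfkfb3 (0.99, adjusted p = 0.0121, and 0.101 without the 2 mural libraries), higher (median -0.30; 4 and 0 without them), with Ldha at -0.67 ± 0.14. Of 25 oxidative phosphorylation genes 4 were lower and 0 higher (median -0.20, and 3 and 0 without the 2 mural libraries). The share lower was near the 17.2% of all tested genes.

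Inflammasome and cell death genes had 5 of 22 higher and 3 lower (median -0.04, the same counts without the 2 mural libraries). Of all tested genes 17% were higher and 17.2% lower. Pycard, the inflammasome adaptor ASC, lost its whole rise (47.9, 53.6 and 59.3 and 23.5, 23.2 and 26.4 FPKM, -1.15 ± 0.20, adjusted p = 0.00176), the combined mean lying at the Control mean of 24.5 FPKM. The death receptor gene Fas rose from 5.79, 3.71 and 5.22 to 17.3, 16.7 and 18.3 FPKM (1.82 ± 0.23, adjusted p = 2.72e-04), and the gasdermin E gene, listed as Dfna5, from 1.16, 1.32 and 1.16 to 4.37, 4.84 and 4.00 FPKM (1.85 ± 0.14, adjusted p = 1.09e-05). Of 29 cell cycle genes 5 were higher and 1, Ccnd1 (-0.80), lower (median 0.20), and 4 and 1 without the 2 mural libraries. The share higher was near the 17% of all tested genes, and the share lower was under their 17.2%.

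**Figure D4:**
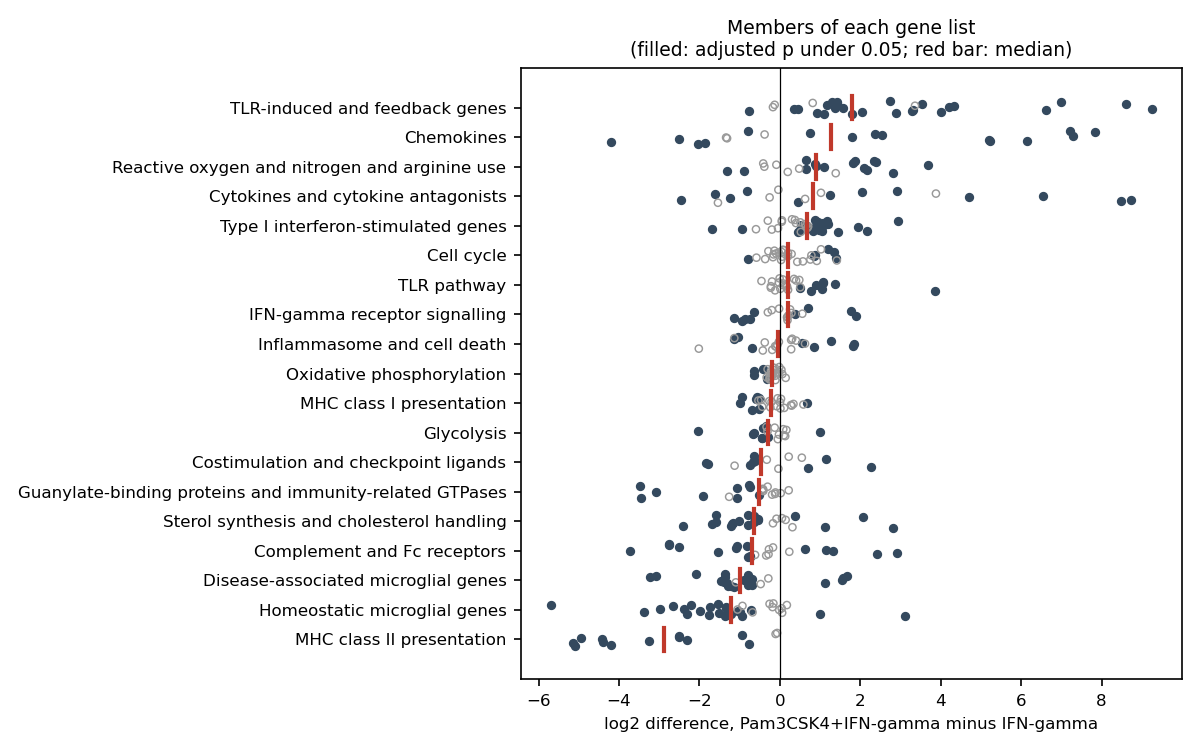
Each row is a gene list and each point a tested member, placed at its log2 difference, combined minus IFN-gamma; filled points passed an adjusted p under 0.05 and the red bar is the list's median. MHC class II (median -2.87) lies at the bottom with 12 of 14 members lower, TLR-induced genes (median 1.81) at the top with 24 of 29 higher, and MHC class I (-0.22) near 0.

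Most of the difference between the combined and IFN-gamma groups was also seen with Pam3CSK4 alone, in libraries that the first comparison does not use. Against Control, 2188 genes (20%) were higher and 2344 (21.4%) lower after Pam3CSK4. Of these, 1066 were higher in both comparisons (57.4% of the 1856 and 48.7% of the 2188) and 1082 lower in both (57.4% of the 1884 and 46.2% of the 2344). Another 76 were higher with IFN-gamma and lower without it, and 110 the reverse. The interaction, the difference between the Pam3CSK4 effects in cells given and not given IFN-gamma, was called for 1753 genes (16%), and for 915 of the 3740 genes called between the groups (24.5%).

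Of the 29 panel genes shown, chosen for their roles, 13 passed the interaction test. Cd74 was the extreme on the lower side: Pam3CSK4 changed it by 0.25 in cells without IFN-gamma and by -5.09 in cells with it (interaction -5.34 ± 0.19, adjusted p = 2.34e-06). Il1b was the only panel gene with a positive called interaction over all libraries, with effects of 1.19 without and 6.56 with IFN-gamma (5.36 ± 0.37, adjusted p = 7.25e-05). Cxcl10, Tnf and Cd40 rose in both settings but by less with IFN-gamma, by 2.55, 2.92 and 2.27 against 6.35, 5.21 and 4.29 without it. Socs1, Cxcl9 and Iigp1 rose after Pam3CSK4 alone and fell when it preceded IFN-gamma, with effects of -0.65, -0.78 and -1.06 on the log2 scale against 3.62, 2.31 and 3.19. For Ciita the interaction did not pass (-1.67 ± 1.07, adjusted p = 0.592), with a mean of only 0.00520 FPKM after Pam3CSK4 alone. P2ry12 (-3.91 and -2.99), Trem2 (-2.39 and -2.08) and Marco (9.75 and 9.25) fell or rose in both settings, and their interactions did not pass (adjusted p = 0.273, 0.516 and 0.658). Without the 3 libraries rich in mural transcripts 7 more shown genes passed. Positive interactions were then called for Il6 (4.46, adjusted p = 3.43e-04), Tmem119 (1.15, adjusted p = 0.00247), Tlr2 (0.74, adjusted p = 0.00982), Ifngr1 (0.74, adjusted p = 0.00294) and Trem2 (0.53, adjusted p = 0.0235), and negative ones for Nos2 (-4.68, adjusted p = 1.18e-04) and H2-DMa (-0.57, adjusted p = 0.0247).

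**Figure D5:**
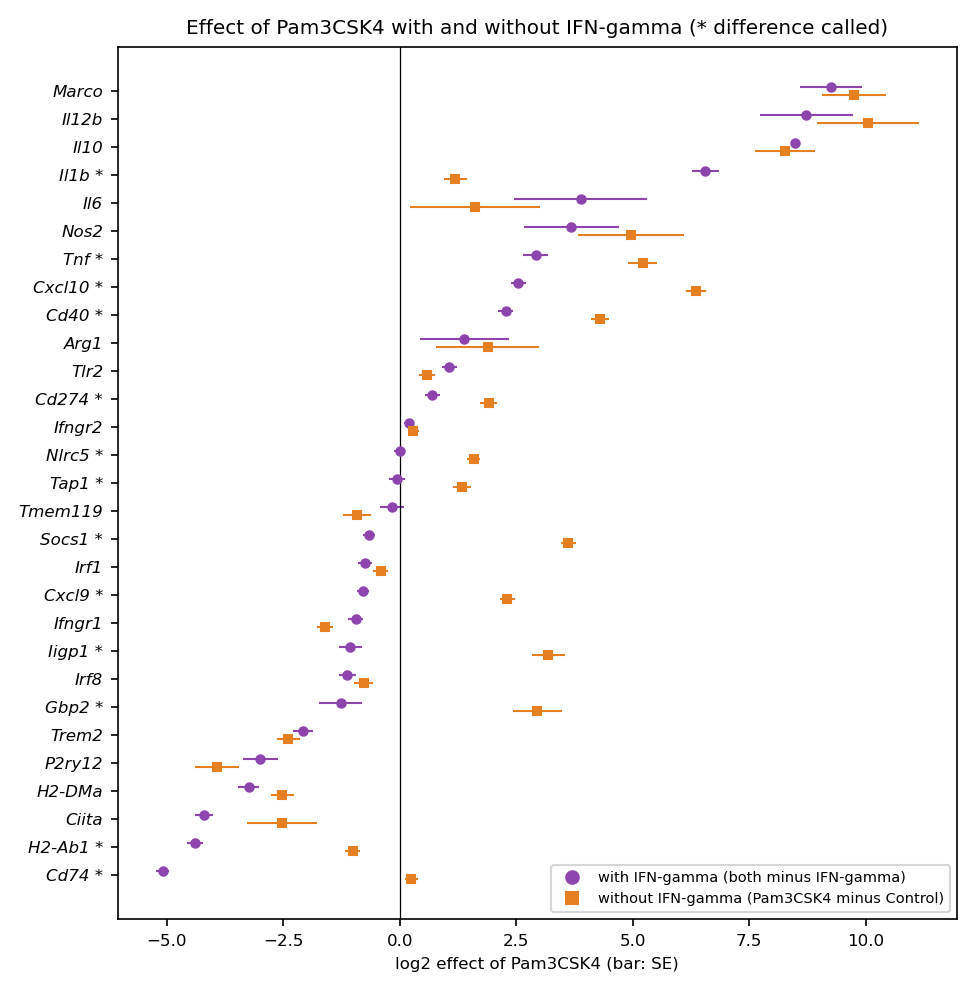
Log2 effect of Pam3CSK4 on 29 panel genes with IFN-gamma (circles, combined minus IFN-gamma) and without it (squares, Pam3CSK4 minus Control), bars being standard errors; Il10 has none with IFN-gamma because its IFN-gamma counts are all 0. Asterisks mark the 13 genes whose 2 effects differed at an adjusted p under 0.05, among them Cd74 (0.25 without and -5.09 with IFN-gamma) and Il1b (1.19 and 6.56).

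Genes that IFN-gamma had lowered were split by the same classes, a split chosen after seeing the data. Of 698 genes called and at least 2-fold lower after IFN-gamma than in Control (6.38% of those tested), 142 were at least 2-fold higher in the combined group than after IFN-gamma alone, 74 were at least 2-fold lower still, 250 stayed within 2-fold by their 95% interval, 78 had a smaller called change and 154 were unresolved. Over all tested genes, 5.69% were called and at least 2-fold higher and 5.53% called and at least 2-fold lower. For 68.8% the interval lay within 2-fold. Both steps use the IFN-gamma libraries, so the counts of the 698 genes are a description. Among the 142 were the cytokine and chemokine genes Il1b and Ccl3, the coreceptor gene Cd14 and the transporter genes Abca9 and Abca1. IFN-gamma against Control had changed these 5 by -3.54, -3.29, -2.47, -4.58 and -1.73 on the log2 scale.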

How the data were processed

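The authors deposited a table with a whole-number read count and an FPKM value per gene and library for 34745 genes, per the file headers. The submitters' processing notes list TopHat2 2.1.0, Cufflinks 2.1.1, Cuffdiff and the build mm10 without their roles. How reads were counted, with which strand setting and gene models, is not given in the sources used here. From the deposited counts, edgeR 4.0.16 (R 4.3.3, TMM scaling, limma 3.58.1) fitted 4 group means over all 11 libraries without a block and tested differences two-sided by quasi-likelihood, p-values being adjusted by Benjamini-Hochberg and called under 0.05. The test covered 10938 genes that reached 1 FPKM in 2 or more libraries, which held 97.97% or more of each library's counts. Values by library are the deposited FPKM, which rest on 15097622 to 20321017 counts in the 6 libraries; differences are log2 from counts, and errors are the difference over the square root of F. DESeq2 1.42.0 and the other alternatives are in the closing section.

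The members, gene lists and classes were chosen with earlier results of these data known, and list counts and medians carry no test. The naming rule took the 12 largest rises and falls, among genes that averaged 5 FPKM or more in either group, did not overlap, kept their call without the 2 mural libraries and were neither predicted genes nor pseudogenes. It added 8 genes a class under the same exclusions, up to 4 called members a list and the 30 panel genes, 133 in all. Further list members and the genes at the class limits were named after their values were seen. Results for some of these genes are not reported here. Of the named genes, 95 had an entry in the RefSeq promoter table. Comparisons were made only between libraries mapped by their titles, and no per-sample column was left out.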

Additional observations from a re-analysis of the deposited data

Results flagged for a closer look

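Between cells with and without IFN-gamma, 13 of 29 panel genes shown differed in their response to Pam3CSK4 by the interaction test of edgeR. Each difference is on the log2 scale, the effect in IFN-gamma-treated cells less the effect in cells not given IFN-gamma. Time since the agonist may also differ between these settings and cannot be told apart from IFN-gamma. On the lower side, Cd74 differed by -5.34 ± 0.19 and H2-Ab1, whose Pam3CSK4 effect was -1.01 without and -4.40 with IFN-gamma, by -3.39 ± 0.22. Genes that Pam3CSK4 alone raised and that did not rise above IFN-gamma in the combined group were Socs1 (-4.28 ± 0.22), Iigp1 (-4.25 ± 0.43), Gbp2 (-4.22 ± 0.71), Cxcl9 (-3.09 ± 0.20), Nlrc5 (-1.58 ± 0.18) and Tap1 (-1.39 ± 0.26). Genes raised in both settings, by less with IFN-gamma, were Cxcl10 (-3.80 ± 0.25), Tnf (-2.29 ± 0.37), Cd40 (-2.02 ± 0.25) and Cd274 (-1.22 ± 0.24). Il1b differed the other way, by 5.36 ± 0.37. The largest adjusted p among the 13 was 0.0106, for Cd274. All 13 also passed without the 2 mural libraries, with adjusted p up to 0.0373.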

How the results depend on the processing

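With RLE scaling, DESeq2, the filterByExpr filter, the fit of the 6 libraries alone and the replicate block, every count of called genes and of lowered, spared and boosted genes stayed within 1.5 times the main value, with 1654 to 2366 genes higher and 1660 to 2256 lower. Without any filter 22703 genes were tested, of which 1784 were higher and 1445 lower. Without the 2 mural libraries 1224 were higher and 1137 lower, and without the 3 libraries rich in mural transcripts 2281 and 2120. Over the whole panel of 30 genes, including 1 not shown, the interaction passed for 14 over all libraries, for 14 with the block and for 21 without those 3 libraries. Leaving out single libraries gave 1356 to 1591 higher and 1327 to 1581 lower, 577 to 672 and 564 to 615 at least 2-fold, 670 to 735 induced, and 150 to 178 lowered, 75 to 83 boosted and 256 to 284 spared. Taking induced genes from the mean of both IFN-gamma-treated groups gave 101 lowered and 236 boosted of 781. With a 4-fold minimum, 303 induced genes held 103 lowered, 45 boosted and 78 spared, fewer by construction. Deviations from the group means correlated at -0.66, 0.49 and -0.64 for equal replicate numbers. The 2 mural libraries, IFN-gamma replicate 1 and combined replicate 3, correlated at 0.79. With 3 libraries a group and 1 mural library in each, these values cannot show whether replicate numbers pair the samples. With the number as a replicate block 1654 genes were higher and 1660 lower, with 725 induced, 171 lowered, 85 boosted and 288 spared, and 1 named gene, Ccne1, lost its call (1.39, adjusted p = 0.0509). No named gene changed sign among those called. Of 133 named genes, 17 lost and 2 gained a call without the 2 mural libraries, with the cause not tested. Of 266 recomputed list medians 13 moved beyond the replicate spread and 1, cell cycle, changed sign. With 3 libraries a group, depth limits low genes most: genes with 0 counts in a group are given as bounds.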

Other observations

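Batf2, an IFN-gamma-induced partner of Irf1, was spared (-0.32 ± 0.21 on the log2 scale, 95% interval -0.79 to 0.14, adjusted p = 0.263). Calls that held with each single library left out and without the 2 mural libraries were Ticam2 (1.37 ± 0.16), Ninj1 (1.27 ± 0.19), E2f1 (0.87 ± 0.19), Arg2 (2.81 ± 0.57), Pdk1 (-0.64 ± 0.10), Ndufs3 (-0.64 ± 0.09), Ndufa1 (-0.63 ± 0.16), Sdhd (-0.42 ± 0.09), Cnp (-1.28 ± 0.18) and Mbp (-0.74 ± 0.14). In 10 genes the call was lost in some of these fits: Serping1 (-2.76 ± 0.80, adjusted p = 0.0257, up to 0.0935 with single libraries left out), Gbp2b (-1.91 ± 0.52, 0.0260, up to 0.0903), Pfkp (-2.04 ± 0.63, 0.0328, up to 0.104), Pvr (1.15 ± 0.33, 0.0234, up to 0.0782) and Ccne1 (1.40 ± 0.46, 0.0415, up to 0.127). The same held for Mki67 (1.34 ± 0.36, adjusted p = 0.0190, up to 0.0678), Tyms (1.20 ± 0.34, 0.0222, up to 0.0617), Atp5c1 (-0.31 ± 0.09, 0.0291, up to 0.100), and the glial markers Mag (0.92 ± 0.29, 0.0350, up to 0.0985) and Aldoc (-0.81 ± 0.22, 0.0197, up to 0.0772).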
